A study of Mus musculus with 6 samples.

Results

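Long noncoding RNAs are transcripts that carry no long reading frame and that are made and processed much like messenger RNAs. Some, such as Malat1 and Neat1, stay in the nucleus and are part of nuclear bodies, some are spliced only to release small nucleolar RNAs or microRNAs from their introns, and many lie antisense to a coding gene or share its promoter. Several are substrates of the complex of Mettl3 and Mettl14, which writes N6-methyladenosine (m6A) on RNA. Described here are 170 autosomal lncRNAs of double-positive thymocytes, the stage at which developing T cells carry both CD4 and CD8. They were chosen by the deposited normalized counts: of 16448 rows with normalized values, 1365 are annotated as lncRNA, 176 of these have a mean of at least 200 over the 6 libraries, and the 6 on chromosomes X and Y were left out. The normalized count is the read count of a gene divided by 1 size factor per library, and being above this minimum is therefore no finding.

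The RNA came from thymus of C57BL/6 mice, from cells sorted as CD4+CD8+ to a purity of over 98% per the labels. The KO group (3 libraries) carried floxed Mettl14 (Mettl14 fl/fl) and CD4-Cre, a transgene that starts to act around the double-positive stage. Which exons are floxed is not stated, and the count of Mettl14 covers all its exons. The WT group (3 libraries) consisted of littermate controls, labelled WT, and whether they carried floxed alleles or Cre is not stated. Neither the age nor whether each library is a separate animal is given, so a p-value here speaks only of the spread over these libraries, part of which may be technical.

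Counts in genes ranged from 29500254 to 33377056 per library. Mettl14 itself was at 1612, 1831 and 1747 normalized counts in WT replicates 1 to 3 and at 1323, 1258 and 1138 in KO, giving a log2 fold change of -0.49 (SE 0.086, adjusted p in edgeR = 0.289 over 13039 genes). With DESeq2 the adjusted p of Mettl14 was 0.00428, and in the authors' deposited table it is 0.00401. Of the other core genes of the writer, Mettl3 was at -0.096 and Wtap at 0.11. The 12 double-positive markers (Cd4, Cd8a, Rag1 and others) summed to 677044 to 718937 normalized counts per WT library and 711745 to 720583 per KO library. Of markers of other cells, the 10 myeloid and dendritic genes summed to 1876 to 2094 in WT and at 2184 to 2746 in KO, the 8 B cell genes to 571 to 815 and 660 to 989, and the 5 NK and gamma-delta genes that were counted to 824 to 1273 and 1241 to 1508. Of the 5 myeloid genes that were tested all 5 had a log2 fold change above 0 (median 1.47), and 0 passed the edgeR test. The 10 stromal genes summed to 4920 to 5711 and 4902 to 5301, nearly all of it Pecam1, with Krt5, Foxn1 and Pdgfra at 0, and the 6 red cell genes to at most 18.9. The part of other cells in the lncRNA values was not tested. In sorted bulk samples, fewer cells of a type and less RNA per cell cannot be told apart.

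Across the 170 genes the median of the mean normalized count was 517. There were 42 genes at 1000 or more, and 81 lay under 500. Together they took 0.730% to 0.854% of all gene counts in a library, with the 3 WT libraries at 0.854%, 0.814% and 0.790% and the KO libraries at 0.730%, 0.838% and 0.759%. The groups overlapped in this share. A small number of genes dominated: 1 gene held 13.2% of the lncRNA counts, the top 5 held 37.8%, the top 10 held 50.8% and the top 20 held 63.1%. Just inside the minimum lay Gm37305 (mean 207), Gm11738 (206), Sp3os (206), Trmt61b (205) and Gm15545 (201). Just outside lay 4930513N10Rik (199), 2010110K18Rik (197), 2500004C02Rik (197), Gm11998 (195) and Gm12709 (195).

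By the GENCODE M21 annotation of the same assembly, 57 of the 170 are antisense, 50 processed transcripts, 49 lincRNAs, 8 from bidirectional promoters, 4 sense intronic and 1 sense overlapping, while Gm10392 is listed there as protein coding. Chromosome 11 holds 30 of them, chromosome 17 holds 17 and chromosome 2 holds 15. Not every row behaves as its label. The row with the highest count, Gm42418 (chromosome 17, 39846958 to 39848788, plus strand, mm10), is a synonym of Rn18s-rs5 in RefSeq, an 18S ribosomal RNA related pseudogene, and Gm26917 (39843013 to 39846341) lies directly before it on the same strand. RefSeq lists Gm12940 as a synonym of the coding gene Sfpq and C030034L19Rik as one of Zfp704, and it names 1810026B05Rik as Chaserr. Reads of near-identical ribosomal RNA copies cannot be placed with certainty, so the values of Gm42418 and Gm26917 are uncertain.

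Counts rise with transcript length, so levels of different genes were compared as normalized counts per kilobase of merged exons in GENCODE M21. The deposited gene lengths were not used for this because they exceed the whole span of the gene for 26 of the 170. On the merged-exon scale the median lncRNA was at 211 per kilobase. Gm42418 was at 18016 per kilobase, and Mir142hg, the host of miR-142, was next at 6476, over exons of only 269 bases. BC018473 was at 3999, Gm15564 at 3888 and Dgkeos at 3295 per kilobase. 2410006H16Rik, which holds 3 snoRNA genes, was at 3139, Malat1 at 2755 and Gm15340 at 2711. Gas5, a snoRNA host, was at 1368, Tug1 at 711 and Neat1 at 481 per kilobase. Kcnq1ot1, an imprinted antisense RNA, was last of the 170 at 4.24. With the deposited lengths, Malat1 was at 2061, Gas5 at 278, Tug1 at 374 and Neat1 at 403 per kilobase, and the first and second places and the last place were held by the same rows.

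**Figure D1:**
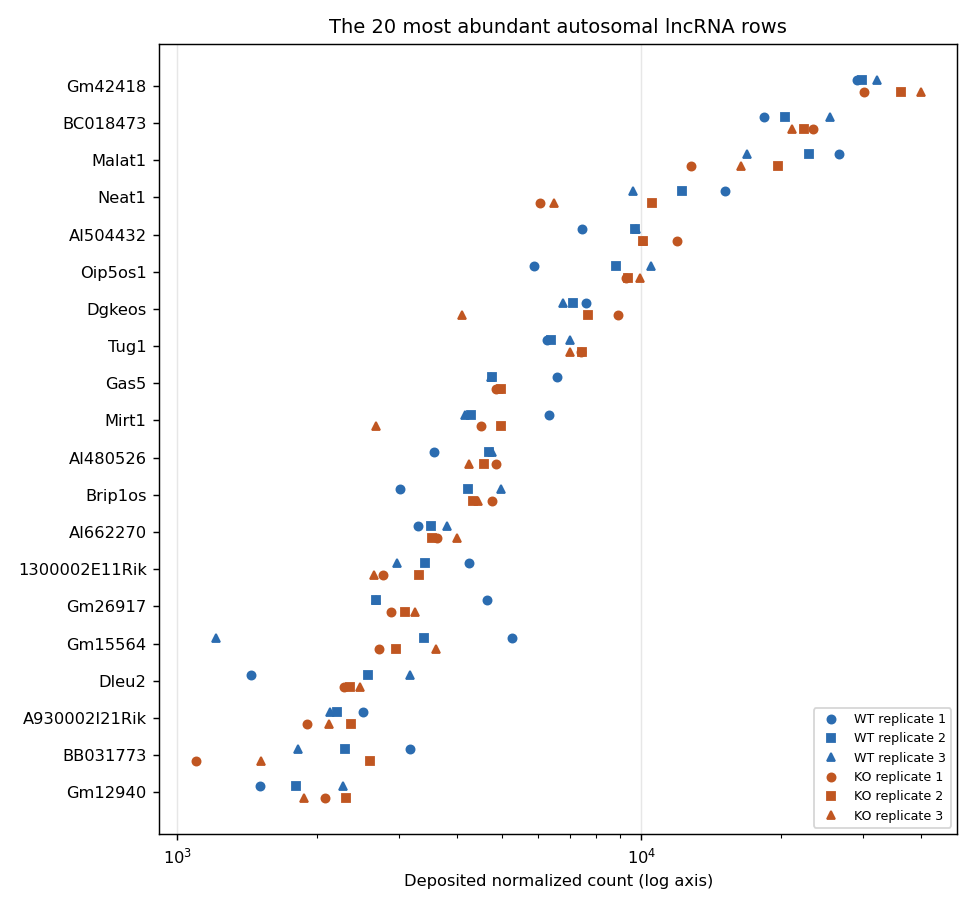
Deposited normalized count (log axis) of the 20 autosomal lncRNA rows with the highest means, 1 point per library, WT in blue and KO in orange, with the marker shape giving the replicate number. Gm42418 was at 29182 to 40095 in every library, and in most rows the WT and KO points overlap.

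In the comparison of KO with WT, 0 of the 170 lncRNAs passed the threshold of an adjusted p under 0.05 in edgeR's quasi-likelihood test, where 5 of all 13039 genes tested did (0.0383%). All 170 entered the test. With limma-voom the count was also 0 (0.0537% of all genes), and with DESeq2 it was 1, 9630013D21Rik (0.681% of all genes). The authors' deposited table lists 2 of them with an adjusted p under 0.05, 9630013D21Rik and Gm20478 (0.762% of all its genes). At an unadjusted edgeR p under 0.05 there were 15 lncRNAs, which is 8.82% of them against a background of 6.72%. Of these, 13 were lower in KO (7.65%, background 3.31%) and 2 higher (1.18%, background 3.41%). This count depended on single libraries. Leaving out WT replicate 3 gave 30 (background 12.8%) and leaving out KO replicate 2 gave 25 (6.98%). It came to 9 with WT replicate 1 removed (7.80%), 8 with KO replicate 3 removed (6.64%), 7 with WT replicate 2 removed (4.10%) and 4 with KO replicate 1 removed (4.52%).

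The distribution was wider than that of coding genes, and its median lay slightly lower in these libraries. The median log2 level of the lncRNAs itself varied between libraries of a group, with a standard deviation of 0.091, which is larger than the median change given next. The median log2 fold change (KO minus WT) was -0.048, with quartiles of -0.23 and 0.075, against -0.0040 over all genes tested and 0.010 over the 8968 coding genes with the same minimum mean. The median size of the change, regardless of sign, was 0.14 for the lncRNAs and 0.081 for those coding genes, and the median standard error was 0.17 and 0.098. In all, 103 of 170 (60.6%) had a log2 fold change below 0, where 51.1% of all genes did. With upper-quartile scaling these were 105 lncRNAs against 57.4% of all genes. At or below -0.5 were 15 lncRNAs (8.82%, background 6.28%), and at or above 0.5 was 1, Gm11944 (0.588%, background 2.80%). The background shares are over all 13039 genes tested, including those below the minimum mean. The median size of the change was 0.11 over all of these and 0.082 over the 9296 with a mean of at least 200. The groups did not overlap, with every KO library lower, for 8 lncRNAs (4.71%, background 5.77%), which are Snhg5, 5430416N02Rik, C78197, 9630013D21Rik, Gm12992, Gm20478, A930015D03Rik and Gm4258. Every KO library was higher for 3 (1.76%, background 7.02%), AI504432, 9230112E08Rik and Gm11131. Both shares are at or under the background.

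**Figure D2:**
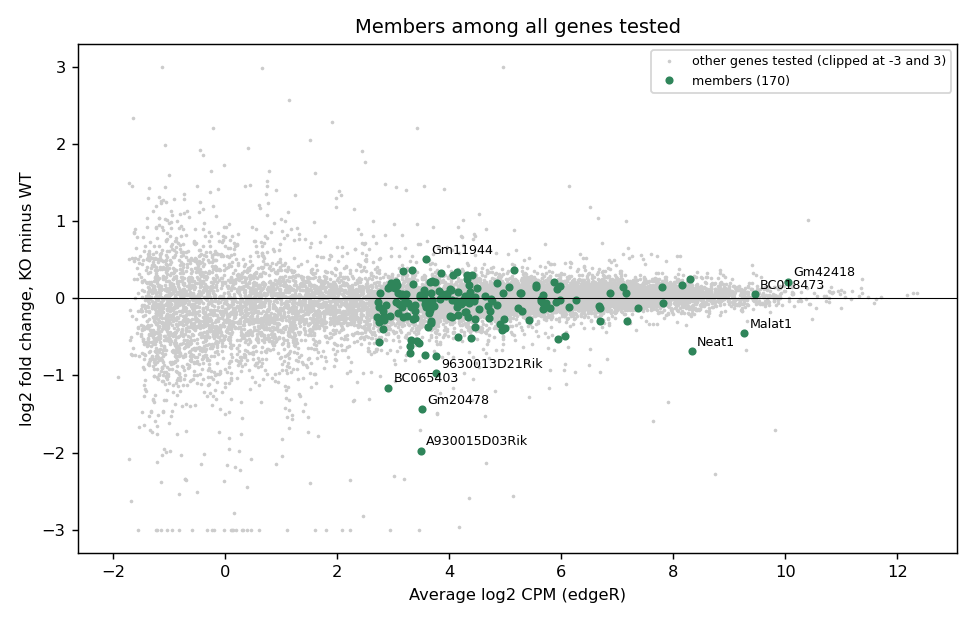
Log2 fold change, KO minus WT, against average log2 CPM (counts scaled to library size, from edgeR) for the 170 lncRNAs (green) and all other genes tested (grey, drawn at -3 or 3 where beyond). The lncRNAs lie between -1.97 (A930015D03Rik) and 0.51 (Gm11944), with Malat1 at -0.45 and Neat1 at -0.68.

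Among lncRNAs of nuclear structure, Malat1 and Neat1, which are neighbours on chromosome 19, had lower mean values in KO. Malat1 (5795690 to 5802672, minus strand), a nuclear speckle RNA, was at 26639, 23000 and 16885 normalized counts in WT replicates 1 to 3. In KO it was at 12773, 19711 and 16418. KO replicate 2 lay above WT replicate 3, so the groups overlapped, and the log2 fold change of -0.45 (SE 0.20) did not pass the test (adjusted p in edgeR = 0.738). Neat1 (5824708 to 5845478, minus strand), the scaffold of paraspeckles, was at 15122, 12203 and 9571 in WT and at 6048, 10532 and 6495 in KO. Again KO replicate 2 alone reached into the WT range. Its log2 fold change was -0.68 (SE 0.24, unadjusted p = 0.0215, adjusted p in edgeR = 0.707), and -0.67 with an adjusted p of 0.0786 in the authors' deposited table. It stayed between -0.97 and -0.50 when any 1 library was left out, and Malat1 between -0.61 and -0.29.

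The coding gene Frmd8, 4224 bases from Neat1, was at 0.13 (SE 0.091). Tug1 (chromosome 11), a nuclear RNA whose start lies 179 bases from that of Morc2a, was among the steadiest lncRNAs. It was at 6256, 6392 and 7030 in WT and at 7407, 7438 and 7024 in KO, giving a log2 fold change of 0.15 (SE 0.067, adjusted p in edgeR = 0.750). Kcnq1ot1 was at 322, 438 and 551 in WT and at 331, 453 and 272 in KO, and the groups overlapped widely. Of the 11 listed RNAs of nuclear structure, 4 were among the 170, and Firre, which also reached the minimum, lies on the X chromosome and was left out. Of the 4, 3 had a log2 fold change below 0 and 0 passed the test, with a median of -0.38. Of 10 listed lncRNAs linked to p53, the 3 above the minimum were Neat1, Tug1 and Gas5 (median -0.13), and of 11 linked to T cells the 1 above it was Dleu2.

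Paraspeckles are built on Neat1 by a set of RNA-binding proteins. Of 11 genes for such proteins, 4 had a log2 fold change above 0 and 7 below, 0 passed the edgeR test and the median was -0.0039. Sfpq (-0.0039, SE 0.077) and Nono (-0.0026, SE 0.076), core paraspeckle proteins, lay near 0.

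GGACT is a frequent form of the sequence in which the writer complex methylates adenosine. It was counted in the longest transcript of each gene in GENCODE M21. Of the 170 lncRNAs, 146 (85.9%) hold it at least once, against 93.5% of 11263 coding genes tested, and the median density was 1.03 per kilobase in both. Malat1 holds 9 (1.29 per kilobase) and Neat1 holds 23 (1.11 per kilobase). Shown because both RNAs lead the nuclear class is a stretch of 120 bases of each that holds 2 copies, with GGACT in capitals, from chr19:5801465-5801584 (Malat1) and chr19:5845075-5845194 (Neat1) on the minus strand of GRCm38.
Malat1: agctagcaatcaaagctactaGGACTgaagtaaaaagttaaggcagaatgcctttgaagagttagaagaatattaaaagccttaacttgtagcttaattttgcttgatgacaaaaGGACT
Neat1: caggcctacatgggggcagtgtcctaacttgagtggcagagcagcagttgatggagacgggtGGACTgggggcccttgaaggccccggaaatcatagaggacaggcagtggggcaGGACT
A match to these letters is a description and says nothing of methylation at that base. The 85 lncRNAs at or above the median density had a median log2 fold change of -0.062, and the 85 below it had -0.039.

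Small nucleolar RNAs (snoRNAs) guide the modification of ribosomal RNA and are cut from the introns of their host transcripts, while the spliced remainder is often removed by nonsense-mediated decay. Of 13 listed hosts, 11 were above the minimum, and Snhg9 and Snhg14 were not. Among the 11, 9 had a log2 fold change below 0 and 2 above, 0 passed the edgeR test and the median was -0.047. Including hosts without such a name, 17 of the 170 hold a snoRNA gene on their strand, 10 of them below 0, with a range of -0.51 to 0.36.

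Gas5 (chromosome 1, 161034422 to 161038539, plus strand) carries 10 snoRNA genes. It was at 6576, 4765 and 4739 in WT and at 4869, 4988 and 4934 in KO. WT replicate 1 alone was higher than the rest, and without it the log2 fold change turned from -0.13 (SE 0.13) to 0.050. Zfas1, with 3 snoRNA genes, differed little between any libraries, at 1630, 1437 and 1560 in WT and at 1616, 1470 and 1551 in KO (log2 fold change -0.0035, SE 0.078). Snhg5 (chromosome 9, 88521050 to 88522929, minus strand), the host of Snord50a and Snord50b, had the lowest p among the 11 listed hosts above the minimum. It was at 1711, 1411 and 1279 in WT and at 1235, 1234 and 1179 in KO. The groups did not overlap, and the log2 fold change of -0.28 (SE 0.11) did not pass (adjusted p in edgeR = 0.733).

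The remaining listed hosts stayed close to 0. Snhg17 was at -0.17 (SE 0.12), Snhg3 at -0.15 (SE 0.13), Snhg12 at -0.11 (SE 0.10), Snhg6 at -0.047 (SE 0.10), Snhg16 at -0.020 (SE 0.11) and Snhg20 at -0.018 (SE 0.12). Above 0 were Snhg15 at 0.025 (SE 0.14) and Epb41l4aos at 0.17 (SE 0.17). None of these 8 had non-overlapping groups. Among hosts outside the list, 2410006H16Rik was at 1337, 1309 and 1474 in WT and at 1610, 1411 and 1559 in KO (log2 fold change 0.15, SE 0.082). A430035B10Rik, also outside it, had the lowest log2 fold change of the 17 hosts, -0.51. Its unadjusted edgeR p was under 0.05, and it did not pass the adjusted threshold.

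The proteins that act on these transcripts also gave 0 calls in edgeR. Of 12 nonsense-mediated decay genes, 10 had a log2 fold change above 0 and 2 below, with a median of 0.033, and Smg1, its kinase, was at 0.14 (SE 0.14). Of 10 genes for proteins of snoRNA particles, 2 were above 0 and 8 below, with a median of -0.11. Nop58, a core protein of the box C/D particles, was at 2632, 3336 and 3031 in WT and at 2561, 2556 and 2543 in KO, giving a log2 fold change of -0.24 (SE 0.091, adjusted p in edgeR = 0.715).

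Many snoRNA hosts begin with a run of C and T, the 5′ terminal oligopyrimidine tract known from ribosomal protein genes. Start regions were read from the RefSeq promoter table (GRCm38.p6), in which 102 of the 170 lncRNAs and 15 of the 17 hosts were found. A run of at least 5 C or T letters covering the listed start base was present in 2 of the 15 hosts (13.3%), in 10 of 102 lncRNAs (9.80%) and in 9.95% of all 27025 genes. The 2 hosts are shown, with the run in capitals, beside Snhg5 and Gas5, whose listed starts have none, each from 15 bases before to 34 bases after the start. They are chr4:132308663-132308712 (plus strand), chr11:62602862-62602911 (plus), chr9:88522863-88522912 (minus) and chr1:161034586-161034635 (plus).
Snhg12: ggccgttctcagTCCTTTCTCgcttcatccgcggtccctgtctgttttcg
2410006H16Rik: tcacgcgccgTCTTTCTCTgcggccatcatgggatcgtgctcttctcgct
Snhg5: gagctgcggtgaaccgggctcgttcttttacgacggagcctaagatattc
Gas5: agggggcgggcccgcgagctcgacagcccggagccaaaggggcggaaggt
The listed start of Gas5 lies 179 bases and that of Snhg5 32 bases from the start (the 5′ end) of the deposited gene, so these windows depend on the annotated start.

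Hosts of microRNAs include several with known roles in lymphocytes, and 9 of the 170 lncRNAs hold a microRNA gene on their strand. Of these, 7 had a log2 fold change below 0, 2 above and 0 passed the edgeR test, with a median of -0.075. The mature microRNAs themselves were not measured. Their sequences (RefSeq, GRCm38.p6) are shown for the 4 best-known host loci, with the seed, bases 2 to 8, in capitals. The seed is the part that pairs with target messenger RNAs, and microRNAs of 1 seed share most targets.
miR-15a-5p: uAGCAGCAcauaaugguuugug
miR-16-5p: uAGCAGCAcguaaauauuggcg
miR-17-5p: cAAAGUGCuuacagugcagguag
miR-20a-5p: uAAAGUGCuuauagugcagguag
miR-18a-5p: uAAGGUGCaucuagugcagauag
miR-19a-3p: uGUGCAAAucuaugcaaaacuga
miR-19b-3p: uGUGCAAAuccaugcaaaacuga
miR-92a-3p: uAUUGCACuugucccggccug
miR-142a-5p: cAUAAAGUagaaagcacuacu
miR-142a-3p: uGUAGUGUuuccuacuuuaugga
miR-181a-5p: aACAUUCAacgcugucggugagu
miR-181b-5p: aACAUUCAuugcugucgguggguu
Those of Dleu2 (miR-15a and miR-16) share AGCAGCA, the pair at the miR-181a-1 locus shares ACAUUCA, and the miR-17 cluster falls into 4 seeds, of which AAAGUGC and GUGCAAA each occur in 2 members.

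Dleu2 (chromosome 14, 61602839 to 61682373, minus strand), which carries miR-15a and miR-16-1, was at 1444, 2574 and 3167 in WT and at 2290, 2357 and 2480 in KO. Its 3 KO values lay inside the WT range (log2 fold change -0.016, SE 0.24). Mir17hg (chromosome 14, 115042879 to 115046727, plus strand), the primary transcript of the miR-17 to miR-92 cluster, was at 438, 853 and 1018 in WT and at 598, 879 and 880 in KO (log2 fold change 0.027, SE 0.29). In both, WT replicate 1 was the lowest of all libraries and WT replicate 3 the highest. Mir142hg (chromosome 11), the host of a microRNA abundant in blood cells, was at 1324, 1882 and 2243 in WT and at 1212, 1861 and 1931 in KO (log2 fold change -0.13, SE 0.22). In all 3 hosts and in both groups, replicate 1 was the lowest library and replicate 3 the highest.

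At the miR-181a-1 locus, whose microRNAs tune the sensitivity of the T cell receptor in thymocytes, 2 rows overlap on the plus strand of chromosome 1. Gm4258 (137898595 to 138000384) spans both microRNA genes, and Mir181a-1hg (137966531 to 137969918), inside it, holds that of miR-181b-1 and starts just after that of miR-181a-1. Mir181a-1hg was at 705, 670 and 921 in WT and at 375, 696 and 716 in KO, giving a log2 fold change of -0.37 (SE 0.25, adjusted p in edgeR = 0.793). Gm4258 was at 572, 310 and 342 in WT and at 262, 309 and 252 in KO, giving a log2 fold change of -0.58 (SE 0.24, adjusted p in edgeR = 0.733). The groups overlapped for the first and were separate by less than 2 counts for the second. Ptprc, the nearest coding gene after Gm4258, was at 0.074 (SE 0.060). Of the 10 listed microRNA-related transcripts, 5 were above the minimum (Dleu2, Mir142hg, Mir17hg, Mir181a-1hg and Mirt1), 4 of them below 0, with a median of -0.13. Mirt1, listed with the microRNA-related transcripts though no microRNA gene lies in it, was at 6317, 4287 and 4161 in WT and at 4506, 4983 and 2672 in KO (log2 fold change -0.29, SE 0.25).

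The lncRNA with the lowest p was 9630013D21Rik (chromosome 4, 109651529 to 109657853, minus strand), an uncharacterised processed transcript. It was at 455, 586 and 629 in WT replicates 1 to 3 and at 314, 227 and 313 in KO, so that every KO library lay below every WT library. The log2 fold change was -0.97 (SE 0.18). The unadjusted p was 0.000671 and the edgeR adjusted p was 0.313, whereas DESeq2 gave an adjusted p of 0.000294. In the authors' deposited table it has a log2 fold change of -0.96 and an adjusted p of 0.000283. Leaving out any 1 library kept it between -1.10 and -0.83. The only row opposite it is Gm12811, at a mean of 1.42. Its nearest coding gene, Cdkn2c, which encodes the cell cycle inhibitor p18 and lies 3023 bases away, was at 3512, 5661 and 6310 in WT and at 5912, 4142 and 5698 in KO (log2 fold change 0.019, SE 0.22).

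Next by p were Gm12992 and C78197, both lying opposite a coding gene. Gm12992 (chromosome 4, 131899478 to 131920029, minus strand) was at 448, 589 and 335 in WT and at 259, 294 and 273 in KO, giving a log2 fold change of -0.74 (SE 0.21, adjusted p in edgeR = 0.611). It overlaps Srsf4, a splicing factor gene with 19.3 times its mean count, which was at 0.0041 (SE 0.088). C78197 (chromosome 11, 68192193 to 68196153, minus strand), inside the gene of the syntaxin Stx8, was at 648, 482 and 447 in WT and at 232, 412 and 304 in KO. Its log2 fold change was -0.74 (SE 0.24, adjusted p in edgeR = 0.678), while Stx8 was at 0.032 (SE 0.11). In both pairs the groups did not overlap for the lncRNA, and the more abundant coding gene showed no difference of that size.

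Further down the order, 1700052K11Rik, opposite the kinase gene Tlk2, was at 468, 378 and 254 in WT and at 194, 271 and 256 in KO (log2 fold change -0.62, SE 0.24, adjusted p in edgeR = 0.725). BC043934 (chromosome 9), with no gene opposite it, was at 483, 407 and 239 in WT and at 192, 294 and 211 in KO (log2 fold change -0.71, SE 0.28, adjusted p in edgeR = 0.725). WT replicate 3 fell among the KO values in both. BC065403 (chromosome 9, 72361735 to 72409945, minus strand) was at 479, 297 and 175 in WT and at 70.7, 203 and 155 in KO (log2 fold change -1.16, SE 0.45, adjusted p in edgeR = 0.715). It overlaps Zfp280d, with 34.8 times its count, and 2 other lncRNAs of the set on the plus strand, Gm27230 (log2 fold change -0.39, SE 0.23) and Gm27255 (-0.41, SE 0.20). All 3 were highest in WT replicate 1 and lowest in KO replicate 1.

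On the higher side, Gm11944 (chromosome 11, 3308996 to 3320722, plus strand) was at 242, 321 and 360 in WT and at 510, 357 and 453 in KO. The log2 fold change was 0.51 (SE 0.19, adjusted p in edgeR = 0.713), and KO replicate 2 lay just under WT replicate 3. AI504432 (chromosome 3, 107039504 to 107054347, plus strand) was at 7440, 9712 and 9747 in WT and at 11943, 10079 and 10086 in KO, giving a log2 fold change of 0.25 (SE 0.12, adjusted p in edgeR = 0.751) with no overlap of the groups. It lies 1375 bases from Kcna3, a T cell potassium channel gene, which was at 2791, 3341 and 3831 in WT and at 5377, 3902 and 4240 in KO. Kcna3 likewise had no overlap between groups, with a log2 fold change of 0.43 (SE 0.15, adjusted p in edgeR = 0.694). Both genes were highest in KO replicate 1 and lowest in WT replicate 1.

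**Figure D3:**
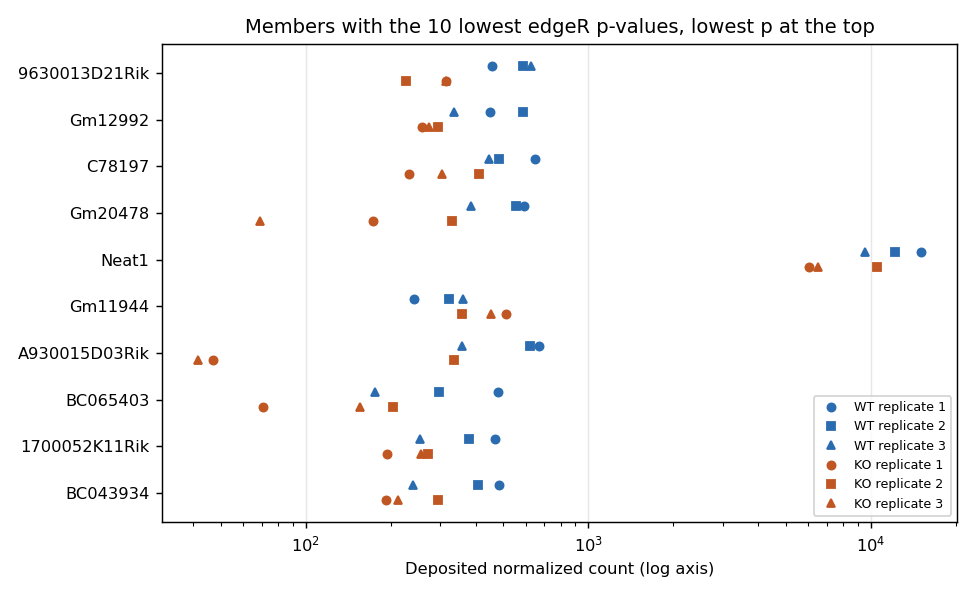
Deposited normalized count (log axis) of the 10 lncRNAs with the lowest edgeR p-values, lowest p at the top, 1 point per library, WT in blue and KO in orange, with the marker shape giving the replicate. For A930015D03Rik and Gm20478, KO replicate 2 (squares, 336 and 330) lies near the WT points, and KO replicates 1 and 3 lie far below.

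The lowest log2 fold changes of the set came from a pair of antisense lncRNAs in the class I region of the major histocompatibility complex on chromosome 17. A930015D03Rik (35994453 to 36038435, plus strand) was at 672, 624 and 357 in WT and at 46.8, 336 and 41.7 in KO. KO replicate 2 stood close to the lowest WT library, and the other KO libraries lay far below it. The log2 fold change was -1.97 (SE 0.74, adjusted p in edgeR = 0.713). Without KO replicate 2 it was -3.64 and passed the threshold (adjusted p in edgeR = 0.0205), so this call rests on which KO libraries are used. Gm20478 (36167982 to 36171805, plus strand) was at 594, 555 and 385 in WT and at 174, 330 and 68.8 in KO, giving a log2 fold change of -1.43 (SE 0.48, adjusted p in edgeR = 0.690). In the authors' deposited table its log2 fold change is -1.60 with an adjusted p of 0.000498, while DESeq2 on group alone gave an adjusted p of 0.545. The gene opposite Gm20478, Gm8909, shares exon bases with it and was at 377, 453 and 537 in WT and at 961, 445 and 242 in KO (log2 fold change 0.26, SE 0.43, adjusted p in edgeR = 0.917), the reverse direction with wide overlap.

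Nearby class I genes also differed, though not all in that direction. H2-T22, which lies opposite A930015D03Rik with shared exon sequence, was at 11004, 12863 and 8267 in WT and at 2911, 7741 and 2116 in KO (log2 fold change -1.34, SE 0.44, adjusted p in edgeR = 0.690). Gm11127, the next coding gene after A930015D03Rik, was at 607, 508 and 283 in WT and at 4.16, 271 and 4.85 in KO. H2-T3, the next after Gm20478, was at 26654, 25968 and 13988 in WT and at 384, 13310 and 148 in KO (log2 fold change -2.27, SE 1.36, adjusted p in edgeR = 0.780). In H2-T22, Gm11127 and H2-T3, WT replicate 3 was the lowest WT library, and KO replicate 2 lay just under it and above the other KO libraries. Gm7030, the coding gene before Gm20478, was at 1668, 1478 and 645 in WT and at 73.8, 783 and 15.5 in KO. There KO replicate 2 lay above WT replicate 3, so the groups overlapped (log2 fold change -2.13, SE 1.05, adjusted p in edgeR = 0.762). Genes H2-T23 and H2-T24, which also overlap A930015D03Rik, were at 0.037 (SE 0.094) and 0.015 (SE 0.24), and Gnl1 just before it at -0.034 (SE 0.074). Class I genes are closely related paralogs, so the counts of these genes are uncertain where reads fit several of them.

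Not every lncRNA of the region followed that order. Gm11131 (35377021 to 35380292, minus strand), opposite H2-Q4, was at 390, 500 and 500 in WT and at 589, 561 and 571 in KO, with no overlap and a log2 fold change of 0.30 (SE 0.13, adjusted p in edgeR = 0.733). H2-Q4 was at 0.15 (SE 0.089). Of the 17 lncRNAs on chromosome 17, 10 had a log2 fold change below 0, with a median of -0.049, close to that of the whole set.

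The strand setting of the counting is not given in the sources used here. Whether reads of genes that overlap on opposite strands were kept apart was not tested. As an example, Gm12256 shares 444 of its 446 exon bases with Zfp39 and had a mean of 678, against 1177 for Zfp39. Ambiguous reads were 0.653% to 0.701% per library. From the deposited coordinates, 112 of the 170 lncRNAs share at least 1 base with a gene on the other strand, in 159 pairs. In GENCODE M21, 85 of the 112 share exon bases with such a gene, and in 16 of the pairs the opposite gene was at 0 in all libraries. In 63 the most abundant opposite gene is a coding gene with the higher count of the pair, and in 21 it is a coding gene with the lower count. The 112 with an overlap had a median log2 fold change of -0.080 (75 below 0), and the 58 without had a median of 0.018 (28 below 0). At an unadjusted edgeR p under 0.05 were 11 of the 112 and 4 of the 58, where 6.72% of all genes tested were. The difference between these classes was not tested, since the lncRNAs share libraries. Some rows of low count opposite lncRNAs were highest in WT replicates 1 and 2, as given below for Gm42418. The part of such library differences in the values of the 112 was not tested either.

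The log2 fold changes of lncRNAs and of the coding genes opposite them were compared pair by pair. For the 78 with a tested coding gene opposite, the sign of the log2 fold change was the same in 40. Across these 78 pairs, which share libraries and may share reads, Pearson's r was 0.37 and Spearman's rho 0.097, and r was 0.0070 without the pair of A930015D03Rik and H2-T22, left out after its values were seen. The lncRNAs had a median of -0.051 and their partners of 0.032. The median size of the change was 0.13 for the lncRNAs and 0.080 for the partners, which had 4.57 times the count in the median pair and over 10 times in 24 pairs. Dgkeos shows such a pair at high counts: it was at 7591, 7122 and 6768 in WT and at 8911, 7672 and 4103 in KO, and Dgke opposite it was lowest in the same library, KO replicate 3, at 12546 against 15546 to 17020 elsewhere. BB031773 was at 3165, 2295 and 1819 in WT and at 1095, 2600 and 1512 in KO (log2 fold change -0.49, SE 0.32), and Tctex1d1 opposite it was at -0.38 (SE 0.21).

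**Figure D4:**
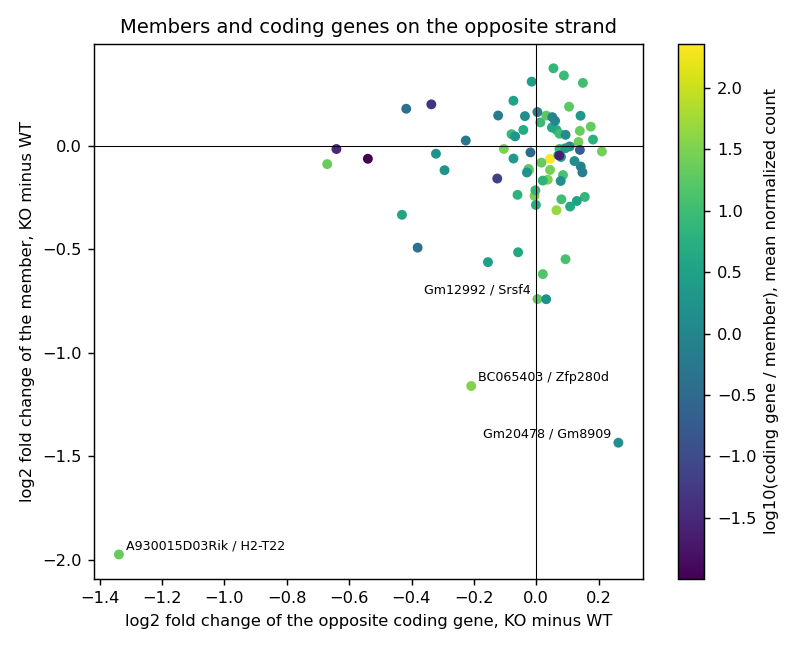
Log2 fold change (KO minus WT) of each of 78 lncRNAs on the vertical axis against that of the most abundant tested coding gene opposite it on the horizontal axis, with colour giving log10 of the ratio of mean normalized counts. A930015D03Rik with H2-T22 (-1.97 and -1.34) is the 1 pair far below 0 on both axes.

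Rows of low count opposite abundant lncRNAs can differ widely between libraries. An unnamed gene opposite Gm42418 (ENSMUSG00000045999) is an example. It was at 238, 306 and 52.4 normalized counts in WT and at 12.5, 4.23 and 14.5 in KO (log2 fold change -4.24, SE 0.72, adjusted p in edgeR = 0.289), at 0.00317 of the count of Gm42418. Gm37376, opposite Malat1, had a log2 fold change of -5.35 (SE 1.02). Mir142b, opposite Mir142hg, was at 32.6, 33.9 and 5.35 in WT and at 0, 2.11 and 0.97 in KO. In each of these rows, WT replicates 1 and 2 were the highest libraries. Gm27008, opposite AI504432, lacked this order, at 150, 116 and 110 in WT and at 124, 143 and 110 in KO. The cause was not tested. Gm42418 was at 29182, 29947 and 32193 in WT and at 30211, 36294 and 40095 in KO, giving a log2 fold change of 0.22 (SE 0.11, adjusted p in edgeR = 0.762). The neighbouring Gm26917 was at 4650, 2684 and 2674 in WT and at 2893, 3100 and 3258 in KO (log2 fold change -0.12, SE 0.21). Without these ribosomal rows the lncRNAs took 0.621% to 0.742% of gene counts per library.

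Of the 170, 47 start within 1000 bases of the start of a coding gene on the other strand, whether or not the genes overlap. A shared promoter was not tested, and the share over all genes was not counted. The median log2 fold change of these 47 was -0.015, with 25 below 0 and 22 above. Examples are Gas5 with Zbtb37, which was at 0.15, Zfas1 with Znfx1 at 0.11, Tug1 with Morc2a at -0.12, and Brip1os with the DNA repair gene Brip1 at -0.00047. Brip1os itself was at 3014, 4222 and 4978 in WT and at 4761, 4339 and 4455 in KO (log2 fold change 0.14, SE 0.16).

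In the 300-base promoter windows of the RefSeq table, from 250 bases before to 50 bases after the start, motifs were searched on both strands in the 102 lncRNAs found there and in all 27025 genes. GGGCGG, the GC box, was in 49.0% of the lncRNAs and 35.9% of all. CCGGAAGT, the ETS motif of many housekeeping promoters, was in 9.80% and 4% of all. CCAAT was in 39.2% and 37.9%, TATAAA in 9.80% and 14.2%, CACGTG in 9.80% and 7.24%, and TGACGTCA in 2.94% and 1.88%. Genes in the table differ in expression, and the lncRNAs were chosen for theirs, so these shares describe the set and are no test.

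The lncRNAs differed widely in how much they varied over the 6 libraries. The highest library was a median of 1.55 times the lowest. In 77 lncRNAs the ratio was under 1.5 and in 8 over 3. The steadiest included 1600020E01Rik, at 1816, 1886 and 1997 in WT and at 1871, 1845 and 1832 in KO, and Tug1, with coefficients of variation of 6.30% in WT and at 3.16% in KO. At the other end, Gm15564 was at 5262, 3403 and 1209 in WT and at 2718, 2959 and 3603 in KO. Gm37065, opposite the receptor gene Slamf6, was at 1043, 956 and 896 in WT and at 1642, 1809 and 322 in KO. The groups overlapped in both, with the widest range among the WT libraries of Gm15564 and 1 low KO library, replicate 3, in Gm37065.

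Particular libraries tended to hold the extremes. WT replicate 1 was the highest of the 6 in 59 lncRNAs (34.7%, against 26.1% of all genes tested) and the lowest in 49 (28.8%, against 27.3%). KO replicate 2 was the highest in 41 (24.1%, against 11.6%) and the lowest in 4 (2.35%, against 10.1%). KO replicates 1 and 3 were the lowest in 46 and 37 (27.1% and 21.8%, against 17.7% and 14.3%). The ranking of libraries seen for Malat1, WT replicate 1 above 2 above 3 and KO replicate 2 above 3 above 1, was shared exactly by 32 of the 170 (18.8%), Malat1 included, and by 6.18% of all genes tested. Neat1, Gas5, BB031773, C78197, Gm15340, BC043934, BC065403 and 1700052K11Rik were among the 32. Of them 27 had a log2 fold change below 0, and their median was -0.25. Of the 806 genes tested that shared this order, 654 were below 0, with a median of -0.13. The order was taken from Malat1, itself lower in KO, so these counts are a description and no test.

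**Figure D5:**
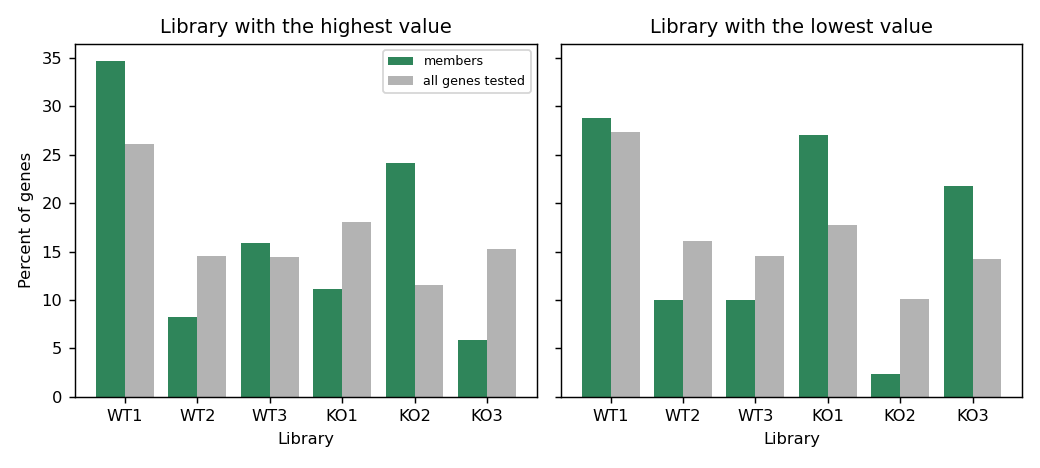
Percent of the 170 lncRNAs (green) and of all 13039 genes tested (grey) whose highest value (left) or lowest value (right) was in each library. KO replicate 2 was the lowest library for 2.35% of the lncRNAs and 10.1% of all genes.

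The share of reads that fell in no annotated gene also differed between libraries, though not in the order of Malat1. It was 15.0%, 15.2% and 13.9% in WT replicates 1 to 3 and 13.0%, 14.2% and 12.3% in KO, so KO replicate 2 was again the KO library with the highest value and lay above WT replicate 3. Reads with several alignments made up 22.6% to 23.9% and ambiguous reads 0.653% to 0.701%. The part of this share in the lncRNA values was not tested. Among the other abundant lncRNAs, BC018473 was at 18340, 20447 and 25506 in WT and at 23448, 22389 and 21150 in KO (log2 fold change 0.053, SE 0.12). Oip5os1 was at 5882, 8835 and 10475 in WT and at 9253, 9358 and 9914 in KO (log2 fold change 0.17, SE 0.18), with WT replicate 1 again apart. AI480526, AI662270, A930002I21Rik, Gm12940 and 1300002E11Rik had log2 fold changes of 0.066, 0.066, -0.11, 0.16 and -0.29, and 0 of these passed the test.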

How the data were processed

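RNA sequencing counts of sorted double-positive thymocytes from 3 KO and 3 WT libraries were used. The authors deposited raw counts per gene and a normalized signal, in which the counts of a library are all divided by the same size factor. The authors' deposited table also gives log2 fold changes with standard errors, test scores and p-values. The submitters' processing notes name the mm10 build and, as tools, DESeq2, HTSeq, STAR 2.5.2 and Trimmomatic 0.33. The sources used here give neither the role of each tool nor the way HTSeq counted, its strand option or the gene annotation, and the deposited file is named as paired without saying what was paired.

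Members and lists were chosen with earlier results of these data known. Members were autosomal lncRNA rows with a mean normalized value of at least 200. Named genes are the 20 with the highest mean, those with an adjusted p under 0.05 in edgeR or the authors' table, the 10 with the lowest p, and the members of the lists. Others are named after their values were seen. Counts were tested with edgeR 4.0.16 in R 4.3.3 (scaling by TMM, low counts removed by filterByExpr, two-sided quasi-likelihood test of KO against WT, Benjamini-Hochberg over 13039 genes). The SE is the log2 fold change over the square root of F. DESeq2 1.42.0 and limma 3.58.1 (voom) were alternatives, with other scaling, filters, blocks and each library left out, and the fit was tested on simulated data. Rows that name no gene were left out: reads without a feature were 12.3% to 15.2%. Replicates differed beyond sampling noise (chi-square per degree of freedom 17.3 to 56.9). Overlaps use the deposited coordinates, and neighbouring coding genes were sought among those with a mean of at least 200. Exons and transcripts are from GENCODE M21 (GRCm38), in which 42462 of 43430 identifiers and all 170 members were found. Promoters and microRNAs are from RefSeq (GRCm38.p6). Some single genes are not reported here.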

Additional observations from a re-analysis of the deposited data

How the results depend on the processing

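Calls over all genes numbered 5, 30 with no filter on low counts (over more genes), 105 with DESeq2 and 4 to 23 with 1 library left out (8 without WT replicate 1, 23 without WT replicate 3, 14 without KO replicate 2). Calls among the lncRNAs were 0, 1 with DESeq2 (9630013D21Rik) and 0 to 1 with 1 library left out (A930015D03Rik without KO replicate 2). The cause of these differences was not tested. Whether equal replicate numbers mark paired samples is not stated, and 3 libraries per group are too few to decide it. Deviations of same-numbered libraries correlated at -0.15, 0.080 and 0.19, and only replicate 3 correlated best with its own number. With the replicate block there were 5 calls over all genes, 0 among the lncRNAs and a median log2 fold change of -0.043. The median was -0.11 to -0.018 with 1 library left out, -0.0030 within replicates 1 and 2, -0.075 over 255 lncRNAs at a minimum of 100 and -0.022 over 103 at a minimum of 400. Lower in KO were 91 to 114 lncRNAs, and 4 to 30 had an unadjusted p under 0.05, with 1 library left out; these 2 counts were added after seeing the data.

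Among the named lncRNAs, 560 log2 fold changes under the alternatives kept sign and side of the threshold, 40 turned sign and 2 newly passed. Dleu2 was at 0.051 and Gm15564 at 0.11 with the replicate block, at 0.016 and 0.072 with a block that sets replicate 3 apart, and at 0.064 and 0.12 with limma-voom. Zfas1 was at 0.0036 with DESeq2 and 0.0090 with no filter. Within replicates 1 and 2, Dgkeos was at 0.16, Dleu2 at 0.20, Kcnq1ot1 at 0.038, Snhg16 at 0.077, Snhg6 at 0.022 and Zfas1 at 0.0013. With 1 library left out, the ranges that crossed 0 were -0.28 to 0.24 for Dleu2, -0.31 to 0.061 for Mir142hg, -0.25 to 0.28 for Mir17hg, -0.047 to 0.11 for Snhg15, -0.080 to 0.081 for Snhg16, -0.078 to 0.043 for Snhg20, -0.081 to 0.017 for Snhg6 and -0.052 to 0.043 for Zfas1. They were -0.29 to 0.21 for Dgkeos, -0.054 to 0.14 for AI480526, -0.044 to 0.20 for BC018473, -0.029 to 0.32 for Brip1os, -0.21 to 0.050 for Gas5, -0.49 to 0.42 for Gm15564, -0.26 to 0.20 for Gm26917 and -0.025 to 0.37 for Oip5os1. The median SE of the lncRNAs, 0.17, limits the precision of each single value.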
